A study of Mus musculus with 20 samples.

Results

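Livers of freely fed progeroid mice were set against livers of food-restricted wild type mice, the pair of groups in a 4-group study that differs in both genotype and diet. The members are 10 of 20 arrays, 1 per animal: 5 labelled progeroid on the control diet (progeroid control) and 5 labelled wild type on the restricted diet (wild type restricted), taken by the source name of each sample. Progeroid mice were Ercc1Δ/-, a germline genotype carried by every cell of the liver, and wild type mice were their littermates; all were F1 hybrids of C57BL6J and FVB parents, were kept on AIN93G synthetic pellets and were sampled at 11 weeks of age. Progeroid control animals ate freely, and their daily intake is not given. For wild type restricted animals, food was cut by 10% at 7 weeks and by 30% from 9 weeks on, to 2.1 g per day against the 3.0 g that freely fed wild type mice ate. Food was handed out shortly before the dark phase, and neither the sex of the animals nor the hour of sampling is given. The other 10 arrays, 5 progeroid restricted and 5 wild type control, were used to sort the differences. Progeroid restricted animals had the same cuts, 10% at 7 weeks and 30% from 9 weeks on, with no daily amount named for them. The comparison asks whether the repair-defective liver resembles the restricted normal liver, and which genes separate them.

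ERCC1 pairs with XPF to form a nuclease that cuts out bulky DNA lesions and unhooks crosslinks between the strands. Mice with little ERCC1 age early, and a lowered growth hormone and IGF1 axis with raised stress defences has been described in such animals and in food-restricted normal animals, so the 2 states invite a direct comparison. In the mouse liver the pulsatile growth hormone secretion of males keeps a set of male-biased genes high and a set of female-biased genes low. Feeding also sets the phase of the liver clock and controls the genes of lipid, bile acid and amino acid metabolism.

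Levels are log2 values, so a difference of 1 is a doubling, and n = 5 in every group. Group levels are given as mean ± SD and differences as progeroid control minus wild type restricted ± SE. The values have no zero point, and folds are compressed near the lower end of the scale, below a level of about 5. A gene was called at a limma adjusted p under 0.05 (Benjamini-Hochberg over all 17097 genes, two-sided). Ercc1 had levels of 5.31, 5.27, 5.14, 5.55 and 5.24 in progeroid control and 6.36, 6.04, 6.09, 6.14 and 6.13 in wild type restricted livers, without overlap, a difference of -0.85 ± 0.10 (adjusted p = 1.96e-06). This is the brightest of its 4 probe sets and has a suffix (_x_at, _s_at and _a_at mark probe sets that can match several transcripts). Of the 3 without a suffix, 1 was lower by more, at 3.37 against 4.74 (-1.37; adjusted p = 2.55e-08 over all probe sets), and 2 did not pass the test (0.02 and -0.10). The Y-linked gene Eif2s3y lay at 9.87 ± 0.26 and 9.98 ± 0.15, and Xist, which is transcribed from the inactive X chromosome, at 4.18 ± 0.16 and 4.30 ± 0.16. Kdm5d, also Y-linked, differed by 0.79 ± 0.12, while Uty did not pass the test (-0.26 ± 0.14). Array medians over all 45141 probe sets lay between 4.17 and 4.21. RNA integrity was read from the 3′ minus 5′ signal of Gapdh, which averaged 0.932 ± 0.284 for progeroid controls and 0.763 ± 0.116 for restricted wild types (exact two-sided permutation test, p = 0.27), with the highest value, 1.38, in progeroid control animal 327. For beta-actin the values were 1.57 ± 0.338 and 1.53 ± 0.0806 (exact permutation p = 0.905). The arrays of the 10 livers correlated at 0.979 or above, and 0 pairs held identical values.

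The freely fed progeroid liver and the restricted wild type liver were the least alike of all pairs of groups. The root mean square log2 difference between 2 arrays averaged 0.502 (range 0.463 to 0.542 over 25 pairs of arrays) between them. It averaged 0.456 between wild type control and wild type restricted livers, 0.374 between progeroid control and wild type control livers, and 0.259 to 0.286 within groups. Each of the 5 progeroid control animals lay nearer to the mean profile of wild type controls (0.322 to 0.348) than to that of wild type restricted animals (0.449 to 0.502). Each of the 5 wild type restricted animals likewise lay nearer to wild type controls (0.392 to 0.449) than to progeroid controls (0.452 to 0.483), and nearer still to progeroid restricted animals (0.329 to 0.392). Progeroid control animals lay 0.31 to 0.372 from the progeroid restricted mean. These distances are a description with no test, and the order of the first place held with each array centred, with probe sets averaged and with dim genes left out.

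**Figure D1:**
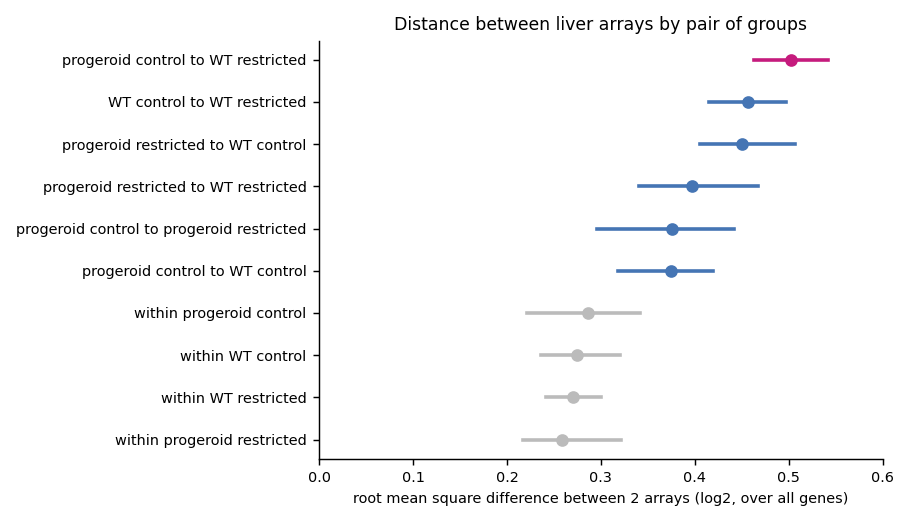
Root mean square difference between 2 arrays (x axis, log2 units, over 17097 genes) for each pair of groups (rows); points are means over pairs of arrays and lines run from the lowest to the highest pair. Progeroid control to wild type restricted, the top row, has the highest mean, 0.502, and the pairs within a group average 0.259 to 0.286.

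Of 17097 genes, 4767 were called (27.9%), 2724 of them higher (15.9%) and 2043 lower (11.9%) in progeroid control livers. At least 2-fold differences were 354 higher and 199 lower, and at least 4-fold differences 67 higher and 42 lower. In 3012 genes (17.6%) the 5 and 5 arrays did not overlap. Most genes named below were chosen among called genes without such overlap. Statements below that the groups do not overlap in a named gene follow from that choice and are no added support. For likeness, the 95% interval of the difference was compared with a 1.5-fold change in either direction: it lay inside for 13482 genes (78.9%), of which 1830 were also called. Among the 9230 genes with a mean of at least 5 in some group, 65.5% lay inside. A further 678 genes (3.97%) were neither called nor inside. The split between directions depends on how the arrays are scaled. The median difference of all genes was 0.0141. With each array centred on its own median over the 17097 genes, and not over all probe sets, it was -0.125, further from no difference. That centring gave 1686 genes higher and 4866 lower, so that 25.7% of calls were higher in place of 57.1%. Directions of small differences are therefore relative to that shift.

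The 12 largest positive differences were led by male-biased liver genes. Hsd3b5, a 3-ketosteroid reductase, had levels of 11.34, 12.27, 11.62, 11.92 and 11.68 in progeroid control livers and 4.86, 4.26, 3.70, 3.90 and 3.34 in wild type restricted livers, a 216-fold difference (7.75 ± 0.55; limma adjusted p = 4.92e-09). Cyp4a12a, an arachidonic acid hydroxylase, stood at 9.82, 11.11, 10.79, 11.22 and 10.47 against 3.80, 3.32, 3.54, 4.13 and 3.62, a 128-fold difference (7.0 ± 0.38; adjusted p = 1.33e-10). In both genes every progeroid control liver was high and every restricted wild type liver was at the lower end of the scale. Elovl3, an elongase of very long chain fatty acids, followed at 6.51 ± 0.33 (91.4-fold). The other 9 were Clec2h, a C-type lectin (4.82 ± 0.55), Afp, the alpha-fetoprotein of fetal liver (4.39 ± 0.17), C6, a component of the complement attack complex (4.37 ± 0.26), the serum amyloids Saa2 (3.76 ± 0.48) and Saa1 (3.69 ± 0.41), the trefoil factor Tff3 (3.69 ± 0.38), Nrep (3.29 ± 0.39), the steroid dehydrogenase Hsd3b4 (3.28 ± 0.25) and Dnaic1, a dynein chain of cilia (3.18 ± 0.19). Near-identical paralogs such as Saa1 and Saa2, the Hsd3b genes and the Cyp2b and Cyp2c genes can share hybridisation, so a value of such a gene may belong to its relatives.

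The 12 largest negative differences were led by female-biased genes of drug and steroid metabolism. Cyp2b9 had levels of 6.83, 4.36, 5.62, 4.80 and 5.84 in progeroid control and 11.84, 11.55, 12.04, 11.77 and 11.83 in wild type restricted livers, 79.6-fold lower (-6.31 ± 0.60; limma adjusted p = 1.65e-07). Acot3, a peroxisomal acyl-CoA thioesterase, stood at 4.05, 3.75, 4.53, 5.49 and 4.31 against 10.67, 10.20, 10.08, 9.19 and 10.42 (-5.69 ± 0.39; adjusted p = 3.9e-09). In both genes the lowest restricted wild type liver was far above the highest progeroid control liver. Next came Cyp17a1, the steroid 17-alpha-hydroxylase (-5.41 ± 0.50), the sulfotransferase Sult3a1 (-5.36 ± 0.57), Usp2, a deubiquitinase of the clock (-5.01 ± 0.76), Cyp2b13 (-4.70 ± 0.46), Cux2, a repressor of male-biased genes (-4.70 ± 0.41), Cyp2b10 (-4.43 ± 0.70), the magnesium transporter gene Nipal1 (-4.21 ± 0.39), the leptin receptor gene Lepr (-3.96 ± 0.49), Cyp2c39 (-3.83 ± 0.27) and the monooxygenase Fmo2 (-3.52 ± 0.30).

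Because progeroid control and wild type restricted livers differ in genotype and in diet, the reciprocal pair, progeroid restricted minus wild type control, was used to sort the genes. It shares no array with the first comparison, has the genotypes the same way round and the diets the other way round, so a gene called with the same sign in both is described here as going with genotype, and a gene called with opposite signs as going with food. Each pair crosses the diets, so these labels do not show a genotype difference on each diet taken alone. In the reciprocal pair 2369 genes were higher (13.9%) and 1973 lower (11.5%). Of the 2724 genes higher in progeroid control livers, 567 were also higher in progeroid restricted livers (20.8% of the first list and 23.9% of the second) and 496 were lower there (18.2% and 25.1%). Of the 2043 lower genes, 598 were higher in the reciprocal pair (29.3% and 25.2%) and 212 were lower (10.4% and 10.7%). A majority, 1661 of the higher (61%) and 1233 of the lower genes (60.4%), were not called in the reciprocal pair. Across the 17097 genes, which are not independent replicates, the differences of the 2 comparisons correlated at -0.16. The split also turns on the scaling: after centring 331 genes were higher and 1632 lower in both.

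**Figure D2:**
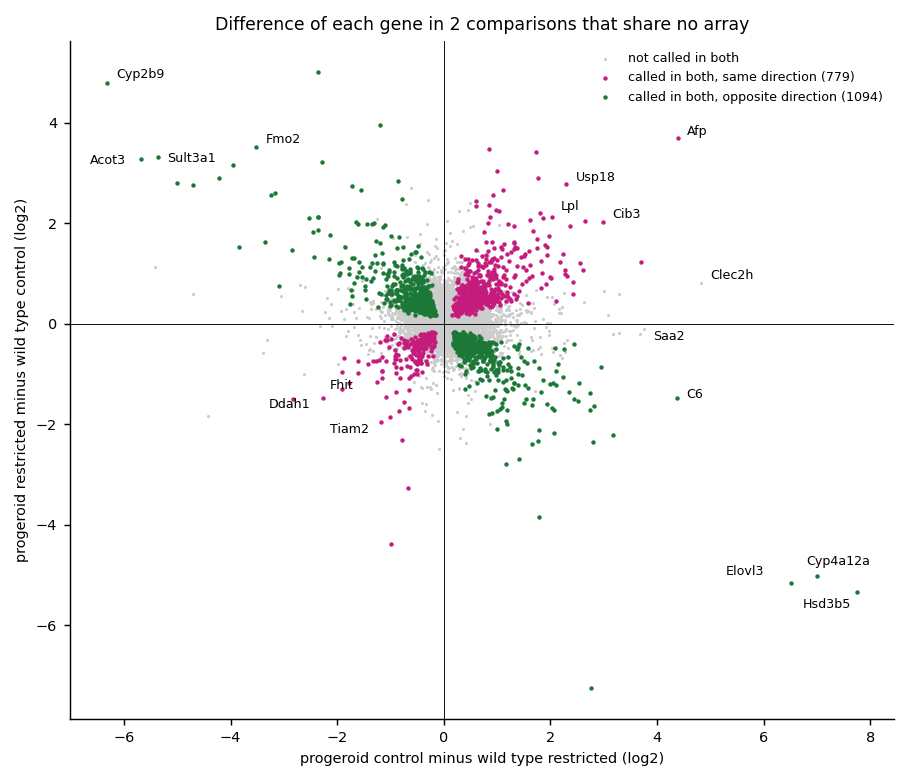
Each point is a gene; the x axis is progeroid control minus wild type restricted and the y axis progeroid restricted minus wild type control, both in log2 units. Of genes called in both comparisons, 779 have the same direction (magenta) and 1094 the opposite direction (green); Afp lies at 4.39 and 3.69, and Hsd3b5 at 7.75 and -5.33.

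Afp went with genotype. Its levels were 8.45, 8.41, 8.11, 8.43 and 8.34 in progeroid control and 4.07, 4.12, 4.11, 3.68 and 3.84 in wild type restricted livers, 20.9-fold higher (4.39 ± 0.17; limma adjusted p = 8.19e-13), and it was 3.69 ± 0.17 apart in the reciprocal pair. Usp18, which removes the ubiquitin-like modifier ISG15, stood at 7.95, 8.19, 8.24, 8.56 and 9.04 against 6.34, 7.10, 5.49, 6.03 and 5.52 (2.30 ± 0.28, and 2.77 ± 0.28 in the reciprocal pair). Lipoprotein lipase, encoded by Lpl, stood at 9.10, 9.46, 9.91, 9.84 and 9.39 against 7.38, 7.70, 7.77, 7.32 and 7.39 (2.03 ± 0.18 and 2.12 ± 0.18). All progeroid control livers were above all wild type restricted livers in these 3 genes, which were chosen among genes without overlap. The adaptor gene Blnk differed by 2.65 ± 0.24 and 2.04 ± 0.24, Cib3 by 2.99 ± 0.29 and 2.03 ± 0.29, and the transcription factor gene Olig1 by 2.37 ± 0.25 and 1.95 ± 0.25.

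The following genes were lower in progeroid livers in both comparisons. Ddah1, whose product degrades asymmetric dimethylarginine, stood at 8.39, 7.82, 8.07, 8.88 and 8.17 in progeroid control and 10.74, 9.98, 10.75, 10.54 and 10.68 in wild type restricted livers (-2.27 ± 0.19, and -1.47 ± 0.19 in the reciprocal pair). Fhit, a gene at a common fragile site, stood at 6.62, 6.80, 6.77, 7.07 and 6.77 against 8.05, 8.22, 8.04, 8.20 and 7.78 (-1.25 ± 0.09 and -1.16 ± 0.09). The receptor phosphatase gene Ptprg differed by -1.15 ± 0.09 and -1.08 ± 0.09, and Tiam2, an activator of Rac, by -1.18 ± 0.19 and -1.95 ± 0.19. Acacb, the mitochondrial acetyl-CoA carboxylase, differed by -2.84 ± 0.50 and -1.50 ± 0.50, and the fatty acid binding protein gene Fabp5 by -1.91 ± 0.42 and -1.30 ± 0.42.

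Of genes that went with food, Hsd3b5, Cyp4a12a and Elovl3 were -5.33 ± 0.55, -5.03 ± 0.38 and -5.15 ± 0.33 apart in the reciprocal pair. The organic anion transporter gene Slc22a7 stood at 10.20, 11.05, 10.92, 11.15 and 10.25 in progeroid control and 8.31, 7.86, 7.70, 6.92 and 6.93 in wild type restricted livers (3.17 ± 0.26, and -2.21 ± 0.26 in the reciprocal pair). The SOCS-box gene Spsb4 differed by 2.79 ± 0.37 and -2.35 ± 0.37. Lower in progeroid control and higher in progeroid restricted livers were Lepr, at 6.35, 4.34, 5.34, 5.19 and 5.61 against 8.66, 9.49, 10.22, 9.24 and 9.0 (-3.96 ± 0.49 and 3.16 ± 0.49), Nipal1 (-4.21 ± 0.39 and 2.90 ± 0.39), Fmo2 (-3.52 ± 0.30 and 3.52 ± 0.30) and Sult3a1 (-5.36 ± 0.57 and 3.32 ± 0.57). The restricted wild type livers were the high group for each of these 4 genes.

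Members of 35 pathway lists and 13 cell type marker lists were counted beside the shares over all genes. Of all genes, 15.9% were called higher, 11.9% lower and 27.9% in either direction. Some lists lay near that last share: nucleotide excision and crosslink repair (29.6%), fatty acid oxidation (31.4%), lipoprotein assembly (26.3%) and T and NK cell markers (25%). Counts of lists near or below the share of all genes are a description and not a result about their members. Counts were also taken against the wild type controls, for progeroid control (6.7% of genes higher, 4.32% lower) and for wild type restricted livers (9.92% higher, 12.6% lower). Those 2 comparisons use the same 5 control arrays, so their counts are only placed side by side.

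**Figure D3:**
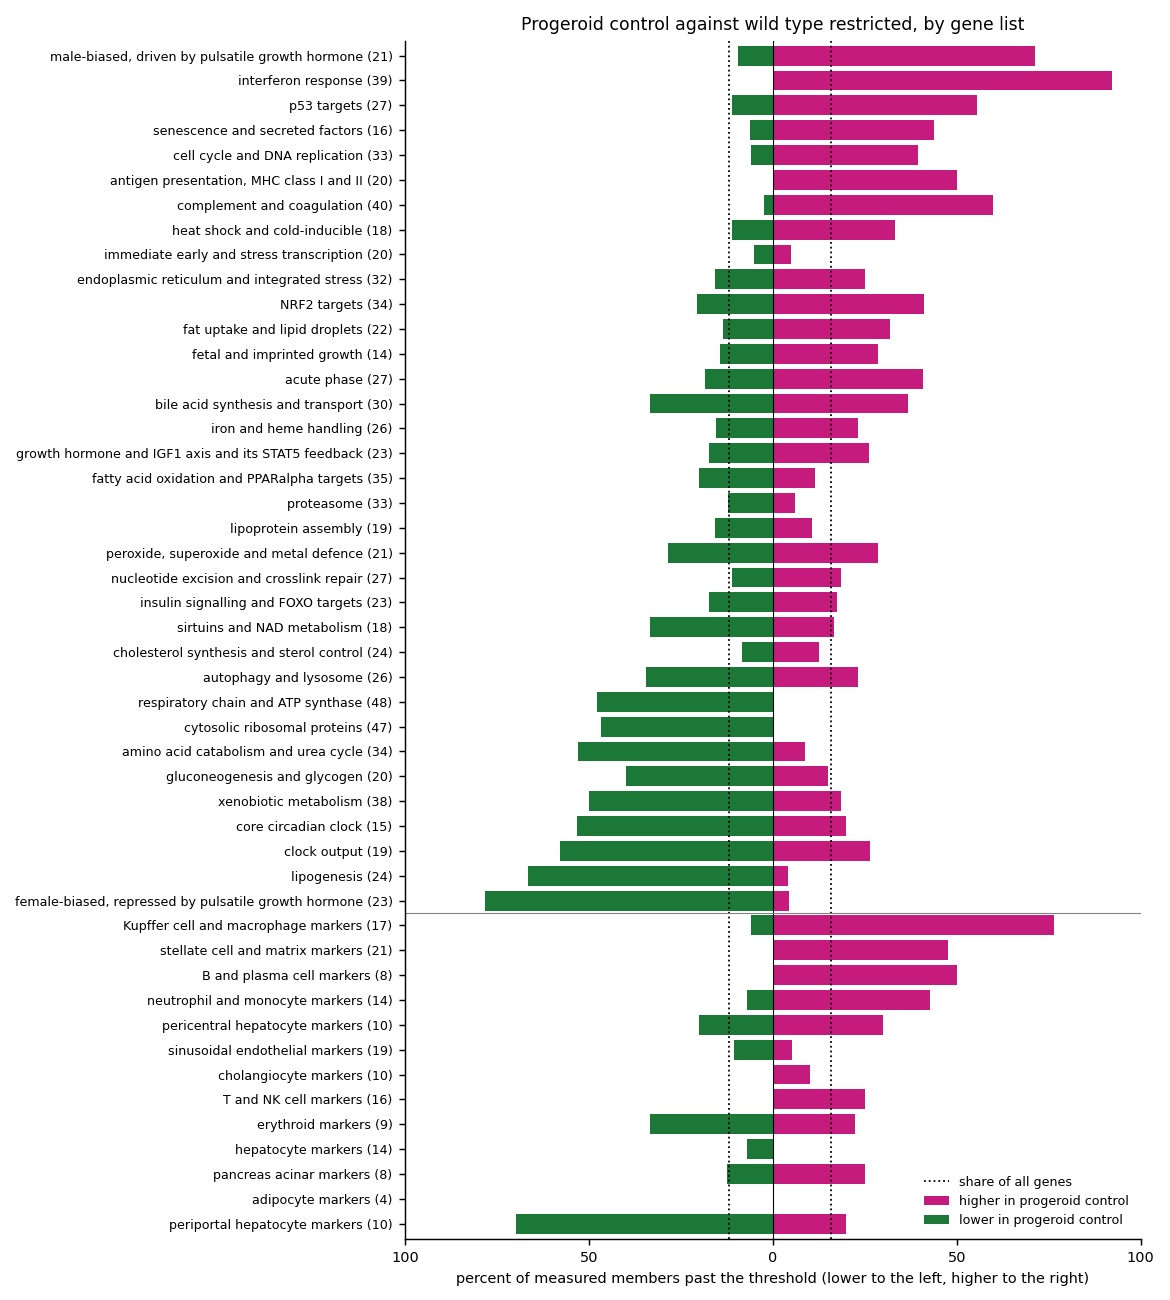
Share of measured members of each gene list (rows, number measured in parentheses) called lower (green, to the left) or higher (magenta, to the right) in progeroid control than in wild type restricted livers, in percent; dotted lines are the shares over all genes, 11.9% and 15.9%. Interferon response genes reach the highest share called higher, 36 of 39, and female-biased genes the highest share called lower, 18 of 23.

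Interferon response genes, which are switched on by type I and type II interferons, were higher in progeroid control livers in 36 of 39 measured members and lower in 0, with a median difference of 1.06 against 0.0141 over all genes. Rsad2, the antiviral protein viperin, had levels of 7.80, 8.04, 8.18, 8.25 and 7.98 in progeroid control and 5.85, 5.33, 5.13, 5.86 and 5.91 in wild type restricted livers, 5.4-fold higher (2.43 ± 0.19; limma adjusted p = 1.79e-08). The immunity-related GTPase Ifi47 stood at 9.88, 10.65, 10.53, 10.44 and 10.41 against 8.21, 8.45, 8.01, 8.0 and 8.18 (2.21 ± 0.17; adjusted p = 1.14e-08), and Irgm1, of the same family, at 9.51, 9.54, 9.15, 9.26 and 9.47 against 8.36, 8.28, 7.91, 7.98 and 8.18 (1.24 ± 0.12). No progeroid control liver overlapped the restricted livers in these 3 genes, which were chosen among genes without overlap. Ifi27l2a differed by 2.27 ± 0.21 and Usp18 by 2.30 ± 0.28. Against wild type controls, 25 of the 39 were higher in progeroid control livers and 22 lower in wild type restricted livers. Rsad2 differed by 0.94 ± 0.19 and -1.49 ± 0.19 in those 2 comparisons, so wild type controls lay between the groups. In the reciprocal pair 20 members were higher and 2 lower, with a median of 0.348. Markers of Kupffer cells and macrophages moved with this list: 13 of 17 were higher and 1 lower in progeroid control livers, 0 of 17 had a mean under 5 in either group, and their summed log2 level ran from 13.35 to 13.80 in progeroid control and from 13 to 13.25 in wild type restricted livers. In RNA from whole liver, fewer cells of a type and less RNA per cell cannot be told apart, and the part of these markers in the interferon counts was not tested.

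Interferon-stimulated response elements are bound by interferon regulatory factors and the ISGF3 complex. The promoters of Rsad2 and Irgm1 are shown because these members hold the element and are among the 4 of the list with the smallest adjusted p. The windows run from 250 bases before to 50 after the gene start (RefSeq, GRCm38.p6): Rsad2 at chr12:26456403-26456702, minus strand, and Irgm1 at chr11:48871371-48871670, minus strand. Letters are 5′ to 3′ on the gene's strand, with matches to the element, searched as GAAA, any 2 bases and GAAA on both strands, in capitals.
Rsad2: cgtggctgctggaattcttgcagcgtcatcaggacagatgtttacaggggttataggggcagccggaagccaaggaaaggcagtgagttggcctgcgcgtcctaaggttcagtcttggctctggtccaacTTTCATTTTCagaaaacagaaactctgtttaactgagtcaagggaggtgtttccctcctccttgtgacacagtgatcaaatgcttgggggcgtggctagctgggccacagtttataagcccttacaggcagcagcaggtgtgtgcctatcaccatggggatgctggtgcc
Irgm1: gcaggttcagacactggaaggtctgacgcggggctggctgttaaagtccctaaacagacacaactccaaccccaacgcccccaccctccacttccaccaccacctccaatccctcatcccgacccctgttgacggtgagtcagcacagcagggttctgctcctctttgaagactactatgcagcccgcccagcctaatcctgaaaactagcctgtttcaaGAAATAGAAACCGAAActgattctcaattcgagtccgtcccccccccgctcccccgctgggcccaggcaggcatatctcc
The motif began at position -120 in Rsad2 and first at -30 in Irgm1, where 2 matches overlap. It was found in 16 of the 29 interferon genes with an entry in the promoter table (55.2%). The share was 3.99% of 27025 genes and 3.59% of the 13605 of these on the array. A match describes the letters and is not evidence that a factor was bound.

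Antigen presentation genes were higher in 10 and lower in 0 of 20 measured members, with a median of 0.343. Ctss, the cathepsin that trims the class II invariant chain, differed by 0.79 ± 0.15 (limma adjusted p = 0.000344), and the class I gene H2-T10 by 0.57 ± 0.12. Without the suffixed probe sets 5 members were higher.

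Targets of p53, the transcription factor that answers DNA damage, were higher in 15 and lower in 3 of 27 measured members (median 0.607). Cdkn1a, the gene of the cell cycle inhibitor p21, had levels of 7.49, 8.15, 7.64, 8.44 and 6.88 in progeroid control and 5.20, 4.74, 6.24, 5.60 and 4.74 in wild type restricted livers, 5.34-fold higher (2.42 ± 0.27; limma adjusted p = 1.24e-06). Phlda3, an inhibitor of AKT, stood at 5.05, 6.40, 6.49, 6.57 and 6.03 against 4.17, 3.48, 3.95, 4.11 and 3.67 (2.23 ± 0.29; adjusted p = 7.48e-06). Progeroid control animal 321 was the lowest of its group for Phlda3 but still above all restricted livers. Cyclin G1, from Ccng1, differed by 1.26 ± 0.14, and the translesion polymerase gene Polk by 0.75 ± 0.12. The lower members were Ddit4, an inhibitor of mTORC1 (-1.18 ± 0.43), Gadd45b (-1.04 ± 0.19) and Tigar, a fructose bisphosphatase (-0.42 ± 0.13). The call of Tigar was lost without progeroid control animal 323 or 326 or wild type restricted animal 425 (limma adjusted p = 0.0529 to 0.0667), and that of Ddit4 without any 1 of progeroid control animals 321, 325 and 327 and wild type restricted animals 421 to 424 (0.05 to 0.118). The reciprocal pair had 11 members higher and 0 lower, with 0.83 ± 0.27 for Cdkn1a and 1.38 ± 0.29 for Phlda3. Among nucleotide excision and crosslink repair genes 5 were higher and 3 lower of 27, or 29.6% called against 27.9% of all genes. Ercc1 itself was the most significant (9 were lower after centring and 1 without suffixed probe sets). Ercc3 and Gtf2h3, subunits of the TFIIH complex, differed by 0.56 ± 0.10 and 0.54 ± 0.08, and the ligase gene Lig3 by 0.37 ± 0.08. Ercc4, which encodes the nuclease partner XPF, differed by -0.49 ± 0.12 and the damage sensor gene Ddb2 by -0.39 ± 0.12. Both had the opposite sign in the reciprocal pair (0.34 ± 0.12 and 0.63 ± 0.12). Another Ercc4 probe set was also lower (-0.41, limma adjusted p = 0.0178 over all probe sets). Its remaining probe sets did not pass the test (0.0005 and -0.03), so the Ercc4 difference is not shared by all of them.

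The list of senescence and secreted factors had 7 of 16 members higher and 1 lower; the lower count was 0 without any 1 of progeroid control animals 323 and 325 to 327 and wild type restricted animals 422, 424 and 425. The chemokine genes Ccl2 and Cxcl1 differed by 0.91 ± 0.09 and 2.25 ± 0.47, and Mmp12, the macrophage elastase, by 1.52 ± 0.22. Of fetal and imprinted growth genes 4 were higher and 2 lower of 14, with 1 lower without any 1 of progeroid control animals 323 and 326 and wild type restricted animals 422, 423 and 425. Meg3, an imprinted noncoding RNA, stood at 7.10, 7.49, 7.54, 7.87 and 8.55 in progeroid control and 5.28, 4.73, 5.12, 5.21 and 5.19 in wild type restricted livers (2.60 ± 0.32; limma adjusted p = 4.1e-06). Plagl1, an imprinted zinc finger gene, differed by 1.19 ± 0.19, and Cdkn1c, the imprinted inhibitor p57, by -1.13 ± 0.17, with opposite sign in the reciprocal pair (1.19 ± 0.17).

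Male-biased genes were higher in 15 and lower in 2 of 21 measured members (median 1.27), and female-biased genes were higher in 1 and lower in 18 of 23 (median -2.52). Cux2 stood at 3.89, 4.07, 3.73, 3.73 and 3.74 in progeroid control and 9.01, 8.68, 8.69, 7.61 and 8.66 in wild type restricted livers, 26-fold lower (-4.70 ± 0.41; limma adjusted p = 7.21e-08). All progeroid control livers were near the lower end of the scale for this gene, as wild type controls were (3.84 ± 0.14). Trim24, a corepressor of nuclear receptors, stood at 6.62, 6.90, 7.02, 7.28 and 7.25 against 9.46, 9.70, 9.72, 9.19 and 9.61 (-2.52 ± 0.17; adjusted p = 2.62e-09). The male-biased genes that went the other way were Serpina12, which encodes vaspin (-0.99 ± 0.28), and the carboxylesterase Ces1e (-1.01 ± 0.16), and the female-biased one was Rtn4 (0.45 ± 0.13). Serpina12 lost its call with averaged probe sets, and Rtn4 after centring. Against wild type controls, male-biased genes were higher in 1 and lower in 5 members in progeroid control livers, and higher in 0 and lower in 18 in wild type restricted livers. For female-biased genes the counts were 2 higher and 4 lower, and 18 higher and 1 lower. In the reciprocal pair 0 male-biased genes were higher and 19 lower, and 16 female-biased genes were higher and 1 lower. For the growth hormone and IGF1 axis the counts were 6 higher and 4 lower of 23. Leaving out 1 array moved the 6 to between 2 and 7, with a count of 2 without progeroid control animal 323 or wild type restricted animal 424 and of 3 without progeroid control animal 325 or 326 or wild type restricted animal 423 or 425. Against wild type controls, 0 members of this list were higher and 3 lower in progeroid control livers, and 6 higher and 7 lower in wild type restricted livers. Dio2, the activating deiodinase, was the member the naming rule gave, at -0.35 ± 0.08, and its call was lost when its probe sets were averaged. Its levels, 3.58 and 3.93, lie near the lower end of the scale, and its other probe sets did not pass the test (-0.09 and 0.06).

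**Figure D4:**
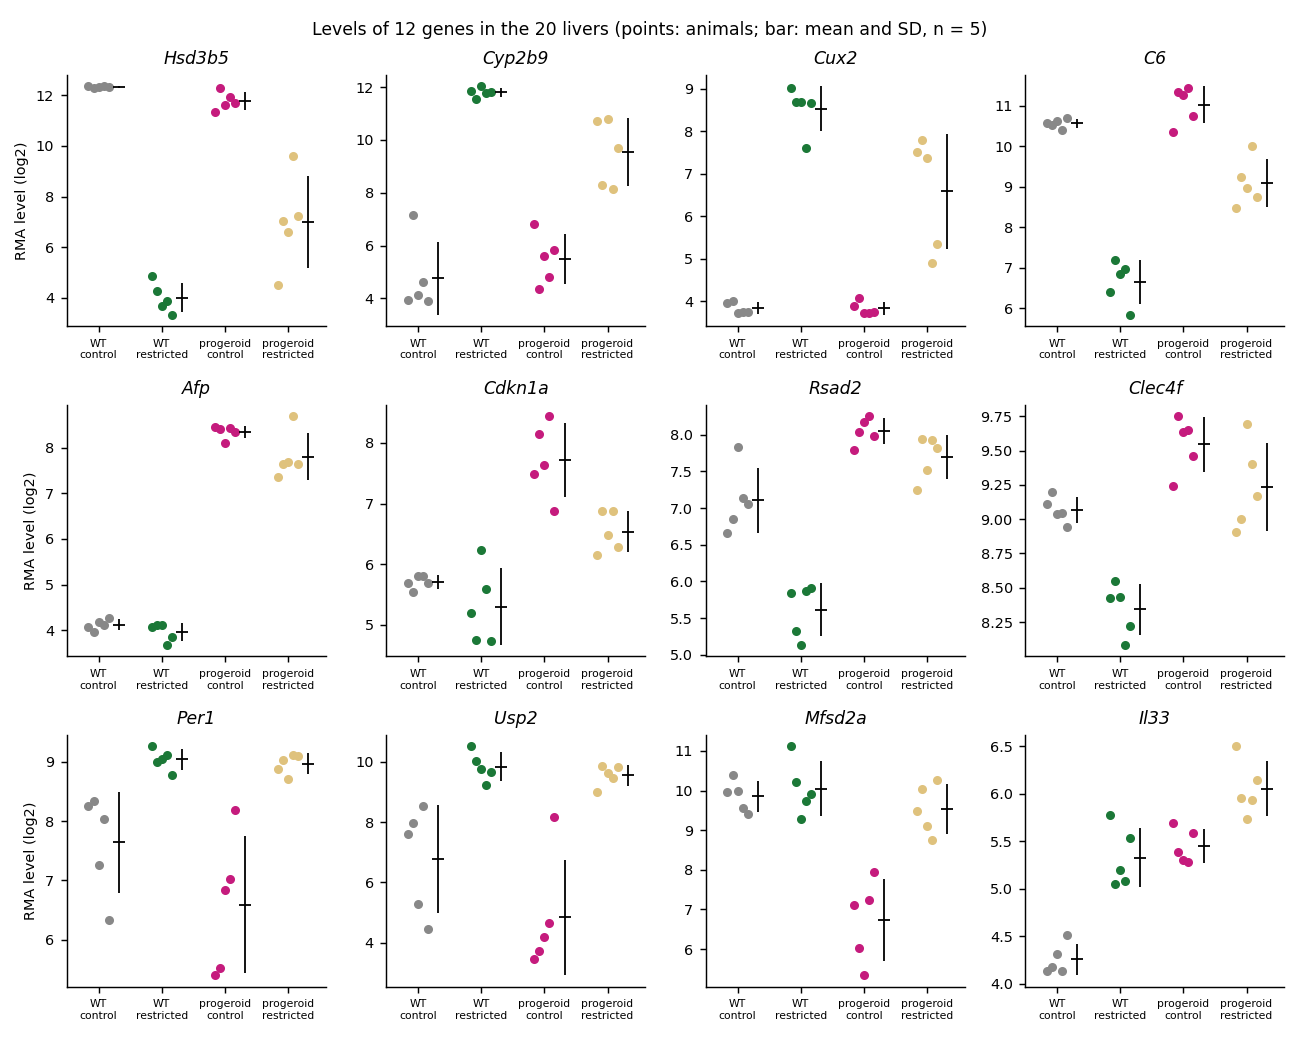
Log2 levels of 12 genes (y axes) in the 4 groups of 5 livers; points are animals, and bars give mean and SD. Hsd3b5, C6, Afp, Cdkn1a, Rsad2 and Clec4f lie higher in every progeroid control than in every wild type restricted liver, Cyp2b9, Cux2, Per1, Usp2 and Mfsd2a lie lower, and Il33 overlaps between them. All of these except Il33 were chosen among called genes without overlap.

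Complement and coagulation genes, which the liver secretes into plasma, were higher in 24 and lower in 1 of 40 measured members (median 0.317); after centring, 19 were higher and 5 lower. C6 had levels of 10.36, 11.34, 11.26, 11.43 and 10.73 in progeroid control and 6.39, 7.20, 6.86, 6.98 and 5.84 in wild type restricted livers, 20.7-fold higher (4.37 ± 0.26; limma adjusted p = 8.21e-10). C8a stood at 12.10, 12.51, 12.56, 12.62 and 12.37 against 9.42, 10.05, 9.73, 9.59 and 9.28 (2.82 ± 0.21; adjusted p = 9.04e-09). C9 differed by 2.14 ± 0.14 and C8b by 2.74 ± 0.18. These 4 genes of the membrane attack complex were all higher. They were chosen as the list members with the smallest adjusted p among genes without overlap, so they do not describe the whole complex. The lower member was F7, coagulation factor VII (-0.40 ± 0.12), whose call was lost in the fit on 10 arrays, and 2 were lower without progeroid control animal 325 or wild type restricted animal 422. C6 and C8b also belong to the male-biased list. Against wild type controls 5 were higher and 0 lower in progeroid control livers, and 2 were higher and 17 lower in wild type restricted livers.

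Core clock genes were higher in 3 and lower in 8 of 15 measured members (median -0.719), and clock output genes higher in 5 and lower in 11 of 19 (median -0.967). Per1, a repressor in the clock loop, had levels of 5.41, 5.52, 6.84, 7.02 and 8.19 in progeroid control and 9.26, 8.99, 9.04, 9.11 and 8.78 in wild type restricted livers (-2.44 ± 0.41; limma adjusted p = 0.000128). Per3 stood at 5.90, 5.35, 6.49, 5.92 and 8.16 against 8.85, 9.14, 8.50, 8.34 and 8.84 (-2.37 ± 0.39; adjusted p = 0.000109). Progeroid control livers spread widely in both, and animal 327 was the highest of them for Per1. Cry2, another repressor, differed by -0.74 ± 0.11, and Clock, the activator, by 0.78 ± 0.13. Among output genes Usp2 stood at 3.46, 3.73, 4.18, 4.64 and 8.16 against 10.52, 10.04, 9.75, 9.22 and 9.66 (-5.01 ± 0.76; adjusted p = 4.19e-05). Animal 327 stood apart from the other progeroid controls for Usp2 and remained below the restricted livers. Nfil3, a repressor of D-box genes, differed by 2.06 ± 0.34, and Hlf, an activator of them, by -1.02 ± 0.10. In fits that left out 1 of the 10 arrays in turn, 8 core clock genes and 9 to 11 output genes were lower. In the reciprocal pair Per3 differed by 2.13 ± 0.39, Usp2 by 2.79 ± 0.76 and Nfil3 by -2.17 ± 0.34, opposite in sign. Since the hour of sampling is not given, a difference in level and a shift in phase cannot be told apart.

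Clock factors bind E-boxes (CLOCK with BMAL1) and D-boxes (HLF and its relatives, and NFIL3). The promoters of Per1 and Per3 are shown because these repressors carry the 2 kinds of element. They are RefSeq windows of GRCm38.p6, Per1 at chr11:69098699-69098998, plus strand, and Per3 at chr4:151044616-151044915, minus strand. Capitals mark CACGTG in Per1 and TTANGTAA in Per3, each searched on both strands.
Per1: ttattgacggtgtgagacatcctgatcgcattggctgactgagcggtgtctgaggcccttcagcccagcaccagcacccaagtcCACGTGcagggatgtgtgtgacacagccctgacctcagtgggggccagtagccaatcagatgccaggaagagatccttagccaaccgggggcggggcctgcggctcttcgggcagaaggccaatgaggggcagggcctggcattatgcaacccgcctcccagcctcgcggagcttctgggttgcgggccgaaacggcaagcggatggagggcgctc
Per3: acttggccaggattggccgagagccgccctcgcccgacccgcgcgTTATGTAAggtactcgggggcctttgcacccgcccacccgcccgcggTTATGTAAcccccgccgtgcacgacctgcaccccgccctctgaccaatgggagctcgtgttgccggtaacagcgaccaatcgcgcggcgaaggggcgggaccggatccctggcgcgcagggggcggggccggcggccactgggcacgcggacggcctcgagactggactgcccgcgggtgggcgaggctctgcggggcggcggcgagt
The E-box began at position -166 in Per1, and 2 D-boxes were found in Per3, the first at -205. E-boxes of this form were in 4 of 12 core clock genes with a promoter entry (33.3%) and in 2 of 15 output genes (13.3%). They were in 8.09% of 27025 genes and in 10.2% of the 13605 of these on the array, near the share of the output genes. The D-box letters were in 1 of 12 core clock genes, in 0 of 15 output genes, in 2.72% of all genes and in 2.07% of those on the array.

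Genes of fat synthesis were higher in 1 and lower in 16 of 24 measured members (median -1.25). Mfsd2a, a lysophospholipid transporter, had levels of 7.11, 6.02, 5.34, 7.24 and 7.94 in progeroid control and 11.11, 10.21, 9.28, 9.72 and 9.92 in wild type restricted livers, 9.95-fold lower (-3.32 ± 0.41; limma adjusted p = 4.01e-06). Pklr, the liver pyruvate kinase, stood at 9.81, 9.32, 8.67, 8.37 and 8.42 against 10.54, 10.35, 10.60, 10.80 and 10.17 (-1.58 ± 0.25; adjusted p = 8e-05). Both genes, chosen among genes without overlap, were lower in every progeroid control liver. The higher member was Elovl2, an elongase of polyunsaturated fatty acids (0.47 ± 0.10). The fructose-handling kinases Khk and Tkfc differed by -0.75 ± 0.11 and -1.32 ± 0.23. Against wild type controls 5 members were lower and 0 higher in progeroid control livers, and 8 were higher and 1 lower in wild type restricted livers. Mfsd2a differed by -3.12 ± 0.41 in the former and by 0.19 ± 0.41 in the latter, and Pklr by -0.51 ± 0.25 and 1.07 ± 0.25.

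Fat uptake and lipid droplet genes were higher in 7 and lower in 3 of 22. The lower count was 1 without progeroid control animal 323 or wild type restricted animal 423, and 5 after centring. Fitm1, which partitions fat into droplets, stood at 8.50, 8.53, 7.82, 8.29 and 8.30 in progeroid control and 6.51, 6.39, 5.96, 6.45 and 5.69 in wild type restricted livers (2.09 ± 0.18; limma adjusted p = 4.11e-08). The droplet coat gene Plin2 differed by 1.13 ± 0.17 and Hilpda, an inhibitor of fat breakdown, by 0.82 ± 0.08. Fatty acid oxidation genes were higher in 4 and lower in 7 of 35. The higher count was 2 without progeroid control animal 326, in the fit on 10 arrays and after centring. Cpt2, of the carnitine shuttle, differed by 0.65 ± 0.09, Creb3l3, a hepatic activator of fasting genes, by 0.87 ± 0.12, and Acot2 by -1.40 ± 0.24, a call that was lost without the suffixed probe sets. Cholesterol genes were higher in 3 and lower in 2 of 24, with Lss, lanosterol synthase, at -1.54 ± 0.37. The lower count was 1 without wild type restricted animal 421, 424 or 425, and after centring 1 was higher and 5 lower. Lipoprotein assembly genes were higher in 2 and lower in 3 of 19. Tm6sf2, which loads lipid onto particles, differed by -1.04 ± 0.14, the sorting receptor gene Sort1 by 1.10 ± 0.17, Apoc2 by 0.37 ± 0.08 and Apoa4 by -0.77 ± 0.22.

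Amino acid catabolism and urea cycle genes were higher in 3 and lower in 18 of 34 (median -0.245). Asl, the argininosuccinate lyase, stood at 10.91, 11.04, 10.78, 10.79 and 10.96 in progeroid control and 11.94, 11.85, 12.20, 12.12 and 11.93 in wild type restricted livers (-1.11 ± 0.10; limma adjusted p = 1.44e-07). Dpyd, the enzyme that starts pyrimidine breakdown, stood at 11.17, 11.32, 11.41, 11.34 and 11.23 against 12.51, 12.44, 12.55, 12.38 and 12.39 (-1.16 ± 0.09; adjusted p = 8.49e-09). Tat, the tyrosine aminotransferase, and Prodh, the proline dehydrogenase, differed by -1.06 ± 0.11 and -1.06 ± 0.11. Dpyd was lower in progeroid livers in the reciprocal pair too (-0.95 ± 0.09), while Asl and Prodh had the opposite sign there (0.42 ± 0.10 and 0.62 ± 0.11). Gluconeogenesis and glycogen genes were higher in 3 and lower in 8 of 20. The glycogen branching enzyme gene Gbe1 differed by -1.19 ± 0.11, the glucose 6-phosphate transporter gene Slc37a4 by -0.88 ± 0.14 and Gpt2 by -0.50 ± 0.08. The higher members were G6pc, the glucose 6-phosphatase of glucose release (1.17 ± 0.32), Ppp1r3c, which targets a phosphatase to glycogen (1.30 ± 0.28), and Ldha (0.25 ± 0.08), of which G6pc and Ppp1r3c had the opposite sign in the reciprocal pair (-1.32 ± 0.32 and -1.30 ± 0.28). Ldha lost its call after centring and without progeroid control animal 323 or 326 or wild type restricted animal 421 or 422 (limma adjusted p = 0.0502 to 0.0731).

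Bile acid genes changed in both directions, 11 higher and 10 lower of 30. Cyp7b1, of the alternative synthesis pathway, stood at 11.81, 12.57, 12.12, 12.47 and 12.42 in progeroid control and 10.07, 10.64, 10.25, 10.03 and 10.03 in wild type restricted livers (2.07 ± 0.21; limma adjusted p = 3.37e-07). The uptake transporter Slco1a1 differed by 1.82 ± 0.16 and its relative Slco1a4 by -2.36 ± 0.21, so these 2 transporters went opposite ways. Slc10a1, the sodium-coupled uptake carrier, differed by -0.69 ± 0.06. Xenobiotic metabolism genes were higher in 7 and lower in 19 of 38 (median -0.358). Cyp2c38 stood at 8.28, 7.04, 7.32, 7.58 and 7.86 against 10.83, 10.16, 10.76, 10.99 and 10.82 (-3.10 ± 0.21; adjusted p = 2.31e-09), and Ugt2b1, a glucuronosyltransferase, was higher by 1.38 ± 0.11. Several of the lower members, among them Cyp2b9, Cyp2c39 and Fmo2, are also on the female-biased list.

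Targets of NRF2, the regulator of electrophile defence, were higher in 14 and lower in 7 of 34. Gstp1, a glutathione transferase, stood at 13.40, 13.71, 13.61, 13.69 and 13.35 in progeroid control and 12.52, 12.80, 12.95, 12.88 and 12.62 in wild type restricted livers (0.80 ± 0.10; limma adjusted p = 3.31e-06). Srxn1, sulfiredoxin, differed by 1.07 ± 0.14 and was higher in progeroid livers in the reciprocal pair as well (0.81 ± 0.14). Cbr1, a carbonyl reductase, differed by -1.26 ± 0.09 and in the reciprocal pair by 1.22 ± 0.09, and Tkt, of the pentose phosphate pathway, by -0.72 ± 0.09. Genes of peroxide, superoxide and metal defence were higher in 6 and lower in 6 of 21, with Gpx6 at 1.77 ± 0.22, the methionine sulfoxide reductases Msrb1 and Msra at 0.68 ± 0.08 and -0.48 ± 0.07, and the glutaredoxin Glrx at -0.92 ± 0.12.

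Acute phase genes were higher in 11 and lower in 5 of 27 (7 and 7 after centring). Saa1, a plasma protein of inflammation, had levels of 9.88, 10.87, 11.02, 11.23 and 10.41 in progeroid control and 8.80, 6.26, 6.26, 6.02 and 7.62 in wild type restricted livers (3.69 ± 0.41; limma adjusted p = 1.25e-06). Wild type restricted animal 421 was the highest of its group for Saa1 and still below all progeroid controls. Saa3 differed by 2.04 ± 0.18, and Hamp2, a paralog of hepcidin, by -1.87 ± 0.24, a call that was lost without the suffixed probe sets.

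Markers of Kupffer cells and macrophages were higher in 13 and lower in 1 of 17 measured members (median 0.843). Clec4f, a receptor of Kupffer cells, had levels of 9.24, 9.75, 9.64, 9.65 and 9.46 in progeroid control and 8.43, 8.55, 8.43, 8.08 and 8.22 in wild type restricted livers (1.20 ± 0.13; limma adjusted p = 7.02e-07). Lyz2, lysozyme, stood at 10.09, 10.36, 10.26, 10.29 and 10.15 against 9.21, 9.48, 9.42, 9.36 and 9.15 (0.91 ± 0.09), the scavenger receptor gene Msr1 differed by 1.19 ± 0.14, and Adgre1, the F4/80 antigen, by 1.01 ± 0.14. These 4 genes, chosen among genes without overlap, were higher in all progeroid control livers. The lower member was Cd163, the haemoglobin scavenger receptor (-0.65 ± 0.21), whose call was lost without progeroid control animal 321 or wild type restricted animal 422 or 423 (limma adjusted p = 0.0603 to 0.0779), while 2 were lower without progeroid control animal 325. Macrophages also make complement C1q and class II proteins, and the part of these markers in the complement and antigen presentation counts was not tested. Hepatocyte markers, by contrast, were higher in 0 and lower in 1 of 14, with summed levels of 17.20 to 17.30 and 17.24 to 17.30. The lower member was Hnf4a (-0.30 ± 0.07), a master regulator of hepatocytes, and after centring 8 were lower.

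Neutrophil and monocyte markers were higher in 6 and lower in 1 of 14, of which 11 had a mean under 5 in both groups. The lower count was 0 without any 1 of progeroid control animals 325 to 327 and wild type restricted animals 422 and 425. S100a8 and S100a9, the subunits of calprotectin, differed by 1.27 ± 0.19 and 1.07 ± 0.18, and Plac8 by 1.37 ± 0.16, and in the reciprocal pair by 1.43 ± 0.19, 1.52 ± 0.18 and 1.15 ± 0.16. T and NK cell markers were higher in 4 and lower in 0 of 16, nearly all with means under 5, with Thy1 at 0.81 ± 0.16. B and plasma cell markers were higher in 4 and lower in 0 of 8, and apart from Blnk, which other leukocytes also express, the members were near the lower end of the scale; Ms4a1, which encodes CD20, stood at 4.11 ± 0.15 and 3.61 ± 0.12. Stellate cell and matrix markers were higher in 10 and lower in 0 of 21. Col3a1, of type III collagen, stood at 9.06, 9.56, 9.65, 9.88 and 9.12 in progeroid control and 8.96, 7.08, 7.40, 7.60 and 8.10 in wild type restricted livers (1.63 ± 0.29; limma adjusted p = 0.000218), and Col4a1, of basement membrane, at 0.89 ± 0.15. Animal 421 was the highest restricted liver for Col3a1. Sinusoidal endothelial markers were higher in 1 and lower in 2 of 19, with Bmp2 at -0.46 ± 0.10. Leaving out 1 animal gave 1 to 2 higher and 1 to 2 lower; the higher count was 2 without progeroid control animal 321 or 327 or wild type restricted animal 421, and the lower count 1 without these or progeroid control animal 323 or wild type restricted animal 423 or 425.

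Periportal hepatocyte markers were higher in 2 and lower in 7 of 10, and pericentral markers higher in 3 and lower in 2 of 10. The latter 2 became 1 in the fit on 10 arrays, without suffixed probe sets, and without any 1 of progeroid control animals 321, 323 and 325 and wild type restricted animals 422 to 425. Ass1 and Arg1, of the urea cycle, differed by -0.79 ± 0.11 and -0.44 ± 0.06, and Hal, the histidine lyase, by -0.60 ± 0.13, while the periportal Cyp2f2 was higher by 0.69 ± 0.11. Among pericentral genes Gulo differed by 0.99 ± 0.12, the ammonium transporter gene Rhbg by 0.85 ± 0.15 and Cyp1a2 by 1.15 ± 0.28. Of cholangiocyte markers 1 of 10 was higher, Tspan8 at 1.37 ± 0.20. Erythroid markers were higher in 2 and lower in 3 of 9, with the carbonic anhydrases Car1 at 1.35 ± 0.15 and Car2 at -1.15 ± 0.16 and Alas2, of heme synthesis, at 1.57 ± 0.19. Adipocyte markers were called in 0 of 4 by limma. Pancreas acinar markers were higher in 2 and lower in 1 of 8: Cela1, an elastase found at 10.42 ± 0.12 in freely fed progeroids and 8.43 ± 0.33 in restricted wild types, and Amy2a5 (4.33 ± 1.08 and 2.71 ± 0.07) were higher, and the trypsinogen Prss2, at the lower end of the scale, differed by -0.24 ± 0.07.

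Cell cycle and replication genes were higher in 13 and lower in 2 of 33 (median 0.347). With a minimum level of 5 the higher count was 8, so part of it lay near the lower end of the scale. After centring 11 were higher and 5 lower. Mcm6, of the replicative helicase, stood at 7.16, 6.80, 6.09, 6.35 and 6.81 in progeroid control and 5.42, 5.22, 5.55, 5.32 and 5.16 in wild type restricted livers (1.31 ± 0.17; limma adjusted p = 5.7e-06), and at 1.48 ± 0.17 in the reciprocal pair. The lower members were Rrm2, a ribonucleotide reductase subunit (-1.10 ± 0.24), and Gins1, also of the helicase (-0.40 ± 0.12), whose call was lost without progeroid control animal 326 (limma adjusted p = 0.0512). Mcm4 and Mcm2 differed by 0.96 ± 0.14 and 0.54 ± 0.08, and Cdk1, the mitotic kinase, stood at 5.38, 6.70, 5.03, 5.63 and 5.35 against 4.2, 4.54, 4.04, 4.01 and 4.01 (1.46 ± 0.23). Immediate early genes, which answer handling and stress within minutes, were higher in 1, Jund (0.43 ± 0.11), and lower in 1, Ier3 (-0.77 ± 0.19), of 20, and Jund lost its call after centring. The higher count was 5 without progeroid control animal 327 and 2 without progeroid control animal 321 or wild type restricted animal 422. The lower count was 2 without progeroid control animal 326 or 327 or wild type restricted animal 422.

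Heat shock and cold-inducible genes were higher in 6 and lower in 2 of 18. The small heat shock gene Hspb1 stood at 8.51, 8.92, 8.36, 8.95 and 8.57 in progeroid control and 6.82, 5.84, 6.49, 6.43 and 6.88 in wild type restricted livers (2.17 ± 0.24; limma adjusted p = 1.11e-06), and the chaperone gene Hsp90aa1 differed by 1.39 ± 0.24. Cirbp, a cold-inducible RNA-binding protein, differed by -1.30 ± 0.23, and by 2.0 ± 0.23 in the reciprocal pair. Leaving out progeroid control animal 327, or wild type restricted animal 422 or 423, lowered the higher count to 3. Cryab had 3 probe sets that disagreed: the brightest differed by -0.52 ± 0.11, another by 0.72 (limma adjusted p = 0.00903 over all probe sets) and the mean of all by 0.11, so they give no single direction. Endoplasmic reticulum and integrated stress genes were higher in 8 and lower in 5 of 32, with Vldlr, a lipoprotein receptor, at 3.73, 3.51, 3.42, 3.56 and 3.54 against 7.0, 6.30, 7.35, 6.54 and 7.55 (-3.40 ± 0.26) and the stress sensor Atf6 at -0.38 ± 0.08. Autophagy and lysosome genes were higher in 6 and lower in 9 of 26: Uvrag differed by -0.99 ± 0.09, the initiating kinase Ulk2 by 1.01 ± 0.14, the mitophagy receptor Bnip3 by -0.77 ± 0.13 and Becn1 by 0.37 ± 0.07.

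Cytosolic ribosomal protein genes were higher in 0 and lower in 22 of 47, and respiratory chain and ATP synthase genes higher in 0 and lower in 23 of 48, with medians of -0.18 and -0.172. These differences are small and turn on the scaling: after centring 46 and 41 were lower. The ribosomal count was 14 without progeroid control animal 326 and 7 without the suffixed probe sets. Rpl28 differed by -0.38 ± 0.07 and Rps28 by -0.27 ± 0.05, and of the respiratory chain Sdhd, a subunit of complex II, differed by -0.41 ± 0.08 and Cyc1, of complex III, by -0.31 ± 0.06. Proteasome genes were higher in 2 and lower in 4 of 33 (0 and 11 after centring). The lower count was 1 without progeroid control animal 323 or 326 or wild type restricted animal 424 and 2 without progeroid control animal 327 or wild type restricted animal 423, and the higher count was 4 without progeroid control animal 327. In the insulin and FOXO list 4 were higher and 4 lower of 23. The lower count was 1 without progeroid control animal 321 or wild type restricted animal 421, 2 without progeroid control animal 323 or 325, and 10 after centring. Enho, which encodes the secreted peptide adropin, stood at 9.54, 9.50, 9.85, 9.53 and 9.82 in progeroid control and 7.81, 7.75, 7.01, 7.19 and 6.92 in wild type restricted livers (2.31 ± 0.21; limma adjusted p = 1.38e-07), and the sestrin Sesn3 differed by 1.38 ± 0.14. Sirtuin and NAD genes were higher in 3 and lower in 6 of 18, with Nnmt, which methylates nicotinamide, at -1.21 ± 0.20 and Kmo and Kynu, of tryptophan breakdown, at 0.53 ± 0.07 and 0.57 ± 0.08. Iron and heme genes were higher in 6 and lower in 4 of 26, with Id2 at 1.09 ± 0.21. Centring also moved the lower counts to 9 for iron and heme, 10 for endoplasmic reticulum stress, 10 for peroxide defence, 7 for lipoprotein assembly, 7 for the growth hormone axis and 6 for p53 targets, and the higher counts to 3 for iron and heme, 4 for endoplasmic reticulum stress, 3 for the growth hormone axis and 2 each for autophagy and for T and NK cell markers.

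Some genes stood away from wild type controls by like amounts in progeroid control and wild type restricted livers. They were chosen for that pattern, so the values are a description, and both comparisons use the same 5 control arrays. Il33, a cytokine released by damaged cells, had levels of 5.69, 5.38, 5.31, 5.28 and 5.59 in progeroid control, 5.77, 5.05, 5.20, 5.09 and 5.53 in wild type restricted and 4.13, 4.18, 4.31, 4.13 and 4.52 in wild type control livers, so the first 2 groups overlapped and lay above the controls. It stood 1.19 ± 0.14 and 1.07 ± 0.14 from wild type controls. Zfp788 stood 1.01 ± 0.16 and 0.97 ± 0.16 from them, the protease gene Tmprss2 0.86 ± 0.18 and 0.93 ± 0.18, Trdmt1, an RNA methyltransferase, 0.85 ± 0.15 and 1.11 ± 0.15, the antiproliferative Btg3 0.84 ± 0.13 and 1.11 ± 0.13, and Ccdc62 0.81 ± 0.16 and 0.97 ± 0.16. Below the controls, Dpy19l3, a C-mannosyltransferase, had levels of 4.66, 4.70, 5.0, 4.87 and 4.78, 4.55, 4.76, 4.65, 4.48 and 4.34 and 6.59, 5.91, 6.51, 6.62 and 6.20 in the same order of groups, or -1.56 ± 0.12 and -1.81 ± 0.12. Erc2 stood -1.42 ± 0.19 and -1.31 ± 0.19 from wild type controls, Sugct -1.21 ± 0.14 and -0.96 ± 0.14, Igsf10 -1.19 ± 0.11 and -0.93 ± 0.11, Trhde -0.83 ± 0.14 and -0.82 ± 0.14, and Atxn1 -0.94 ± 0.18 and -0.80 ± 0.18. Dpy19l3, Erc2, Igsf10 and Trhde had means under 5 in both groups, near the lower end of the scale, so their like differences are limited by background and do not show likeness. Among genes above the controls, Zfp788 (4.98 and 4.93) and Ccdc62 (4.32 and 4.48) also had means under 5 in both groups, with the same limit. Another probe set of Tmprss2 differed between progeroid control and wild type restricted livers (-0.62, limma adjusted p = 0.00682 over all probe sets). A dimmer probe set of Dpy19l3 differed too (0.45, limma adjusted p = 0.0126). The like amounts given for these genes are those of their brightest probe sets. In progeroid restricted livers, which combine the repair defect with restriction, Il33 stood at 6.05 ± 0.29 and Dpy19l3 at 4.61 ± 0.19.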

How the data were processed

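Liver RNA of 20 mice was measured on Affymetrix mouse arrays, 1 per animal, in 4 groups of 5 separate animals. The authors deposited log2 values. Per the submitters' processing notes they come from RMA, whose version is not given in the sources used here. This method brings all arrays to 1 distribution and so hides any overall shift. The table has 45141 probe sets, with values from 2.19 to 14.51. Of these, 28898 carried 1 gene symbol in the platform annotation, 551 several and 15692 none (104 control probe sets among the last); 28689 of the 28898 were found in a table of RefSeq genes of GRCm38.p6, and 0 symbols changed. Each of 17097 genes was represented by its probe set with the highest mean over all arrays, and no filter on dim genes was applied. The number of arrays limits the precision.

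With limma 3.58.1 (R 4.3.3; lmFit and eBayes), 1 mean per group was estimated from the 20 arrays, leaving 16 residual degrees of freedom, with Benjamini-Hochberg adjustment within each contrast, a threshold of 0.05 and two-sided tests. The animal numbers are not shared between groups, so nothing was paired. On simulated data for this comparison over 17097 genes, with 50 changed genes per size, the fit recovered 42% of 1.25-fold, 84% of 1.5-fold, 98% of 2-fold and 100% of 4-fold changes, with 4 false calls.

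Named genes had an adjusted p under 0.05, no overlap between the 5 and 5 arrays and no provisional symbol: the 12 largest differences each way, the 6 largest in each combination of direction with the reciprocal pair, and the 4 members with the smallest adjusted p of each list; further, 6 genes each way that stood alike from wild type controls, Ercc1 and sex-linked genes. With members of small counts, chosen after their values were seen, this gave 213 genes, and the choice of those printed was made with their values known. The genes compared, the lists (1103 measured entries of 1266) and the tests were chosen with earlier results of these data known. Alternatives were the fit on 10 arrays, median centring, an intensity trend with a robust prior, array weights, averaged probe sets, no suffixed probe sets, each probe set on its own, a minimum level of 5, a minimum fold of 1.5, Gapdh 3′ minus 5′ as a covariate, and leaving out each of the 10 animals. Promoters are RefSeq windows of GRCm38.p6, given for 29 of 39 interferon genes, 12 of 15 core clock genes and 15 of 19 clock output genes.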

Additional observations from a re-analysis of the deposited data

Results flagged for a closer look

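In groups of 5 animals, 1 animal was taken to stand apart when its gap to the nearest other was more than 0.71 of the group's whole range (Dixon's 95% critical value). Of 378 groups tested, 189 genes in 2 groups, 19 met this (5.03%), where chance flags about 1 in 20. Their part in the results was tested by leaving out each animal in turn.

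Progeroid control animal 321 was lowest for Hnf4a (11.63, nearest 11.75) and lowest for Gulo (12.18, nearest 12.40). Progeroid control animal 327 was lowest for Elovl3 (10.10, nearest 11.43), highest for Usp2 (8.16, nearest 4.64), highest for Nnmt (11.0, nearest 10.10), lowest for Cela1 (10.20, nearest 10.44) and lowest for G6pc (10.88, nearest 12.09). Wild type restricted animal 421 was highest for Blnk (5.49, nearest 4.67), lowest for Mcm2 (6.11, nearest 6.24) and highest for Ulk2 (8.29, nearest 7.82). Wild type restricted animal 422 was lowest for Ddah1 (9.98, nearest 10.54), highest for Ccdc62 (4.87, nearest 4.43), lowest for Cyp2c38 (10.16, nearest 10.76) and lowest for Tm6sf2 (9.39, nearest 9.80). Wild type restricted animal 423 was lowest for Sult3a1 (6.41, nearest 8.73). Wild type restricted animal 424 was lowest for Cux2 (7.61, nearest 8.66), lowest for Prodh (11.25, nearest 11.53) and lowest for Kdm5d (5.93, nearest 6.57). Wild type restricted animal 425 was lowest for Hilpda (5.0, nearest 5.21).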

How the results depend on the processing

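No paired analysis was possible because the animal numbers in the labels are not shared between groups. Leaving out each of the 10 animals in turn gave 4097 to 4671 genes called, 2370 to 2713 higher and 1727 to 1958 lower (the lowest without progeroid control animal 323), 4215 to 4472 called in the reciprocal pair, and 13172 to 13381 within 1.5-fold. The split ranged over 516 to 595 genes higher in both, 420 to 509 higher then lower, 497 to 605 lower then higher and 182 to 225 lower in both. Median centring gave 1686 higher and 4866 lower, 8086 called in the reciprocal pair, and 331 higher and 1632 lower in both. Requiring 1.5-fold gave 1579 called (1038 higher, 541 lower), 1240 in the reciprocal pair, and a split of 188, 134, 140 and 48. Probe sets tested on their own, which are more numerous than genes, gave 7292 called, 3410 lower, 23089 within 1.5-fold, and 746 higher then lower and 916 lower then higher. With a minimum level of 5, which tests fewer genes, 6002 were within 1.5-fold, and the mean distances were 0.64 between progeroid control and wild type restricted, 0.582 between the wild type groups, 0.562 in the reciprocal pair, 0.491 between the restricted groups, 0.464 between the progeroid groups and 0.46 between the control groups. Averaged probe sets gave 0.459, 0.42 and 0.412 for the first 3 of these pairs and 0.34 for the control groups.

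Of 198 named genes that were called, 170 kept call and direction under every setting that gave a value. Of 3520 pairs of gene and setting, 70 lost the call and 2 reversed: Cryab with averaged probe sets (0.114; limma adjusted p = 0.429) and Ercc1 without suffixed probe sets (0.023; adjusted p = 0.857), where the brightest remaining probe set stands for the gene while another unsuffixed one differed by -1.37. Where no cause is given, the cause was not tested. RMA values give no detection call, so differences between levels under about 5 are limited by background.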
